A study of Mus musculus with 12 samples.

Results

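Collagens are the main structural proteins of the extracellular matrix, and the genes described here are the collagen chain genes in stem cells of the hair follicle, sorted from the back skin of mice. Members were chosen by symbol alone: every gene written as Col, a number, the letter a and a further number. This gave 44 genes of the 23735 gene models in each deposited table, each on 1 row. They were divided into 9 genes of types that sit in or anchor the epithelial basement membrane (types 4, 7, 17 and 18) and 35 genes of other types. Levels are in FPKM, fragments per kilobase of transcript scaled to the mapped fragments of a library, so that levels of different genes can be set side by side per length.

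Collagen chains assemble in the endoplasmic reticulum into helical trimers that are then secreted, trimmed and built into fibrils, networks or filaments. Type IV collagen forms the network of basement membranes, type XVII is a transmembrane protein of hemidesmosomes that ties basal keratinocytes to that membrane, and type VII forms the anchoring fibrils beneath it. Fibrillar types I and III are made mostly by dermal fibroblasts, whereas bulge stem cells are known for a rich production of hemidesmosome and basement membrane components.

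The study compared such cells with and without the transcription factor Foxc1 in growing (anagen) and resting (telogen) follicles. It held 12 mRNA sequencing libraries in 7 groups, of which 5 had 2 libraries and 2 had 1. Anagen cells came from male mice of a Black Swiss and C57BL/6 mix at postnatal day 30, and both groups were Sox9CreER mice given tamoxifen, which induces Cre, loss of FOXC1 and a YFP reporter. Their controls (anagen Het) are labelled FOXC1-Sox9CreER-heterozygous, and the inducible knockout is called anagen iKO. The second telogen was sampled in Black Swiss mice, wild type (telogen WT) or with a K14Cre conditional knockout (telogen cKO). Replicate 1 of each was male and aged 42 days, and replicate 2 was female and aged 46 days. A further group (telogen iKO) came from tamoxifen-treated Sox9CreER males of the mixed strain at day 60. Shh-heterozygous Agouti females gave 1 library of the first telogen at about day 23 and 1 of anagen substage II at about day 26. Their sample titles name them as WT, while the cell type label gives Shh-Het. K14Cre acts from development in the skin epithelium, whereas Sox9CreER acts after tamoxifen in Sox9-expressing cells. The sample labels do not name the markers of the sorting gate. In the authors' tests of these pairs, the group names carry CD34 for telogen WT and cKO but not for the anagen groups.

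The files held 1 pooled FPKM value per gene and group, so no value of a single library and no depth could be given. In the table of all 7 groups, Foxc1 stood at 22.5 FPKM in anagen Het, 27.5 in telogen WT, 42.6 in first telogen and 22.1 in anagen II. It stood at 1.32 in anagen iKO, 1.66 in telogen cKO and 3.17 in telogen iKO, below each control. The stem cell markers Cd34, Sox9, Lhx2, Lgr5 and Itga6 were present in all 7 groups, at unequal levels. Cd34 stood at 408 FPKM in anagen Het, 230 in anagen iKO, 883 in telogen WT, 401 in telogen cKO and 513 in telogen iKO. In first telogen it stood at 401 and in anagen II at 129. Itga6 stood between 56.3 and 99.2 FPKM. Krt5 and Krt15 were listed at 0 in several groups, and their rows carry the authors' mark for a locus with too many reads to quantify, which no collagen row had. First telogen stood apart in a single small RNA gene, Mir6236, at 464468 FPKM, against 33327 in anagen II, 21214 in telogen cKO and 7001 to 11462 in the other 4 groups. Of 16 fibroblast markers that are not collagens, 12 lay above all 5 other groups in both Shh-heterozygous libraries, among them Pdgfra at 174 and 50.3 FPKM against 0.0951 to 0.356. Fbln1, Fbln2, Postn and Mmp2 did not. The list's sum did not set both libraries apart: it was 2299 FPKM in first telogen and 583 in anagen II, against 333 to 2266 in the other groups. Postn was the highest gene of the list in every group, and without it the list summed to 905 and 369 FPKM, against 140 to 272. In bulk RNA of sorted cells, more cells of a type and more RNA per cell cannot be told apart.

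Of the 44 collagen genes, 28 reached 1 FPKM in at least 1 group, 17 did so in all 7 groups and 16 in none. The 28 comprised all 9 basement membrane genes, 7 of 11 fibrillar, 3 of 6 type VI, 5 of 9 fibril-associated, 2 of 3 network-forming and 2 of 6 other genes. The remaining 16 genes stayed below 1 FPKM everywhere. The Shh-heterozygous first telogen held the most genes at that level, 27, and the other 6 groups held 19 to 24.

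**Figure D1:**
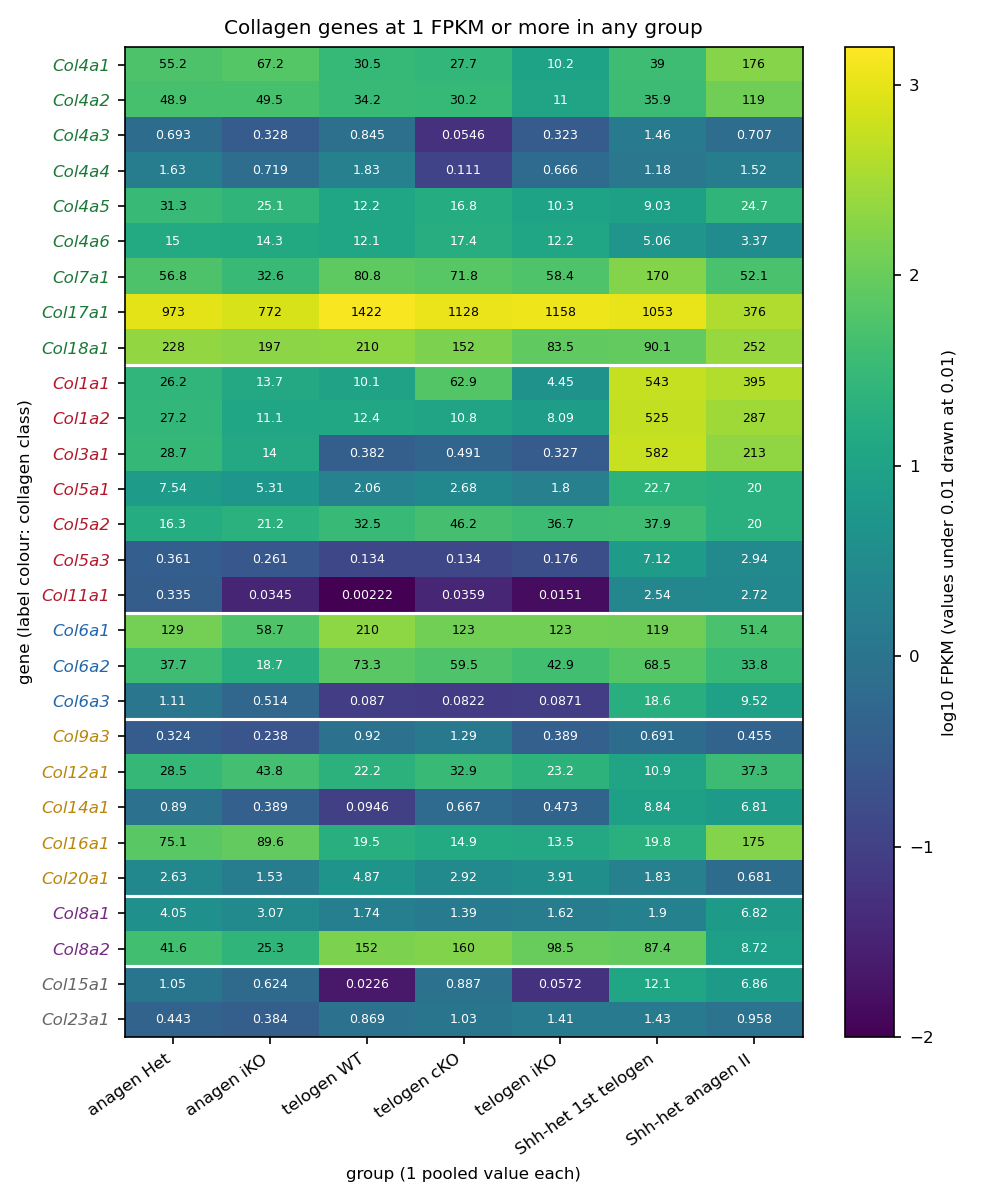
Level of the 28 collagen genes that reached 1 FPKM in any group, as the pooled FPKM of each group written in each cell and coloured on a log10 scale. Rows are grouped by collagen class and columns are the 7 groups; Col17a1 was the highest row in every group but anagen II, and Col1a1, Col1a2 and Col3a1 stood at 213 to 582 FPKM in the Shh-heterozygous libraries against at most 62.9 elsewhere.

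Col17a1 (chromosome 19, 47720831 to 47766532 in mm9), the hemidesmosomal collagen, was the most abundant collagen in every group but anagen II, where Col1a1 stood at 395 FPKM. Col17a1 stood at 973 FPKM in anagen Het, 772 in anagen iKO, 1422 in telogen WT, 1128 in telogen cKO, 1158 in telogen iKO, 1053 in first telogen and 376.5 in anagen II. These levels placed it above 99.2% to 99.5% of all gene models in every group. It made up 52.6% to 67.9% of the summed collagen FPKM in the 5 groups with 2 libraries, 30.2% in first telogen and 16.4% in anagen II. Col18a1, whose protein carries heparan sulfate chains in basement membranes, stood at 83.5 to 252 FPKM and came next among basement membrane genes, except in first telogen, where Col7a1 stood at 170.2 FPKM. The 9 basement membrane genes together made up 73.4% to 78.9% of summed collagen FPKM in the 5 groups with 2 libraries. In the Shh-heterozygous libraries they made up 40.3% and 43.9%.

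The rest of the difference lay in types I and III. Col1a1, Col1a2 and Col3a1 together made up 0.754% to 4.46% of collagen FPKM in the 5 groups with 2 libraries, 47.4% in first telogen and 39.1% in anagen II. Among the 28 expressed genes, 9 of the 19 genes outside the basement membrane types and 0 of the 9 basement membrane genes lay above all 5 other groups in both Shh-heterozygous libraries. The same held for 9.06% of all 14098 genes that reached 1 FPKM. The 9 genes were Col1a1, Col1a2, Col3a1, Col5a1, Col5a3, Col6a3, Col11a1, Col14a1 and Col15a1. Of these, Col5a3, Col11a1 and Col14a1 reached 1 FPKM only in these libraries. Strain, sex, genotype and age also set these libraries apart, and the part of fibroblast RNA in the pattern was not tested.

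**Figure D2:**
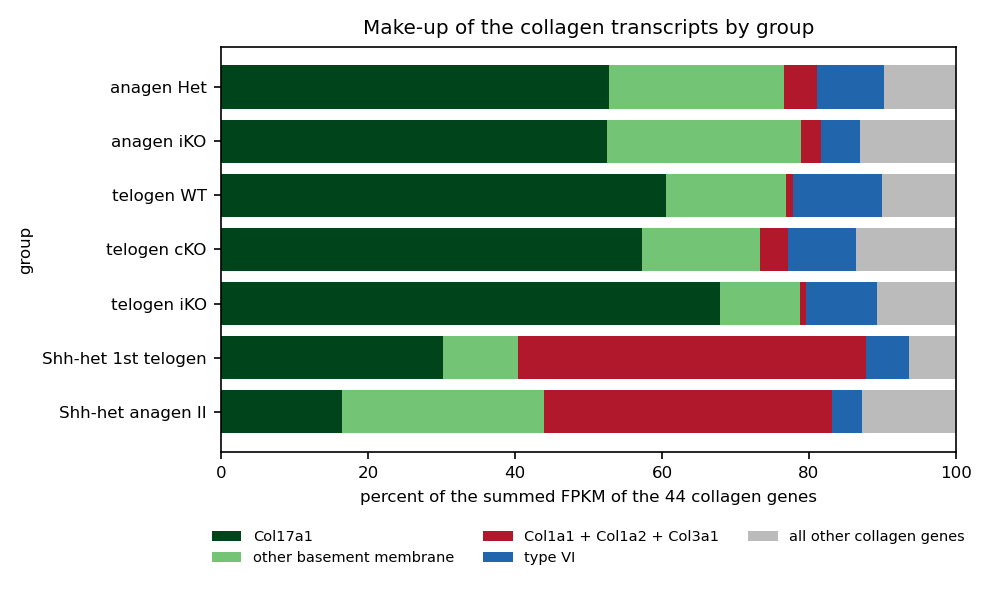
Share of the summed FPKM of the 44 collagen genes by group, in percent, for Col17a1, the other basement membrane genes, types I and III (Col1a1, Col1a2 and Col3a1), type VI and the rest. Basement membrane genes filled 73.4% to 78.9% of the bar in the 5 groups with 2 libraries and 40.3% and 43.9% in the Shh-heterozygous libraries.

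Knockout and control were compared through the authors' deposited tests. A gene was called higher or lower at a deposited q, the p-value adjusted for multiple testing, below 0.05. Standard errors (SE) of log2 fold changes were derived from the deposited statistic and are approximate. Each test compares groups of 2 libraries, labelled as 1 mouse each. Its p-value depends on the authors' estimate of the spread between libraries, which rests on few libraries. For pairs from the table of all 7 groups, the other groups may enter that estimate. In telogen WT and cKO the libraries of a group also differ in sex and age.

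In anagen, 13 collagen genes fell and 1 rose in iKO against Het cells, of 29 that the authors tested. Over all 13716 tested genes, 5.08% were lower and 5.18% were higher. The lower genes were types I, III and VI (Col1a1, Col1a2, Col3a1, Col6a1, Col6a2 and Col6a3), the basement membrane genes Col4a3, Col4a4 and Col7a1, and Col8a2, Col11a1, Col14a1 and Col20a1. Col12a1, a fibril-associated collagen, was the gene that rose. The median log2 ratio of FPKM + 1 over all 44 genes was -0.09, against 0 over all 23735 gene models, and 33 of the 44 had the smaller value in iKO. The collagen median was -0.30 with a pseudocount of 0.1. It was -0.39 over the 22 collagen genes at 1 FPKM in either group, against -0.01 over all 12292 gene models at that level.

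Among anagen basement membrane genes, Col7a1, the anchoring fibril collagen, went from 60.2 FPKM in Het to 34.6 in iKO, a log2 fold of -0.80 ± 0.27 (SE) with q = 0.00106 in the authors' deposited table. Col4a3 and Col4a4 fell from 0.734 to 0.348 and from 1.73 to 0.762 FPKM, both near the lower end of the expressed range. The other 6 basement membrane genes were not called. Col17a1 stood at 1031 FPKM in Het and 818 in iKO, with q = 0.63, and Col4a1 at 58.5 and 71.2 with q = 0.435.

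All 3 type VI chains that were tested fell in anagen. These chains form beaded microfibrils near basement membranes. Col6a1 went from 137 to 62.2 FPKM, a log2 fold of -1.14 ± 0.26 (SE), and Col6a2 from 39.9 to 19.8, a log2 fold of -1.01 ± 0.25. Col6a3, which encodes the largest of the classical type VI chains, went from 1.17 to 0.545 FPKM. Each had q = 0.00106 in the authors' deposited table.

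Of the 8 tested fibrillar genes, 4 fell in anagen. The type I and III chains moved by like amounts: Col1a1 from 27.8 to 14.5 FPKM, Col1a2 from 28.8 to 11.8 and Col3a1 from 30.4 to 14.8, with log2 folds of -0.94, -1.29 and -1.03. Col11a1 went from 0.355 to 0.0365 FPKM. Col5a1, a regulator of fibril diameter, was listed at 7.99 and 5.63 FPKM and was not called (q = 0.0588). Beside these, 13 of 16 fibroblast markers that are not collagens had the smaller value in anagen iKO, of which Fbn1 was called lower, and Mmp2 was called higher. In the table of all 7 groups the fibroblast list summed to 400.0 FPKM in Het and 333 in iKO, and none of its genes was below 0.1 FPKM in either group. Without Postn the list summed to 140 FPKM in Het and 147 in iKO. The larger values in iKO were those of Fbln2 (37.2 and 43.8 FPKM), Fn1 (4.60 and 6.28) and Mmp2 (19.9 and 29.0). Of 9 endothelial markers, 8 had the smaller value in iKO, and Tek and Vwf were called lower. Of 10 dermal papilla and sheath markers, 9 had the smaller value, and Itga8 was called higher. Smooth muscle and pericyte markers had 3 larger and 5 smaller values, with Acta2 and Cnn1 called higher. Hair shaft and root sheath markers moved too: 7 of 10 were called lower. The part of such cells in the collagen result was not tested.

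Among fibril-associated and network-forming genes, Col12a1 rose from 30.2 to 46.4 FPKM (log2 0.62 ± 0.27 SE, q = 0.0143). Col8a2, which forms hexagonal networks, fell from 44.1 to 26.8 FPKM, and its partner chain Col8a1 stood at 4.29 and 3.25 FPKM without a call. Col14a1 and Col20a1, both fibril-associated, fell from 0.943 to 0.412 and from 2.79 to 1.62 FPKM. Col16a1, one of the more abundant collagens of anagen, stood at 79.6 and 94.9 FPKM with no call.

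**Figure D3:**
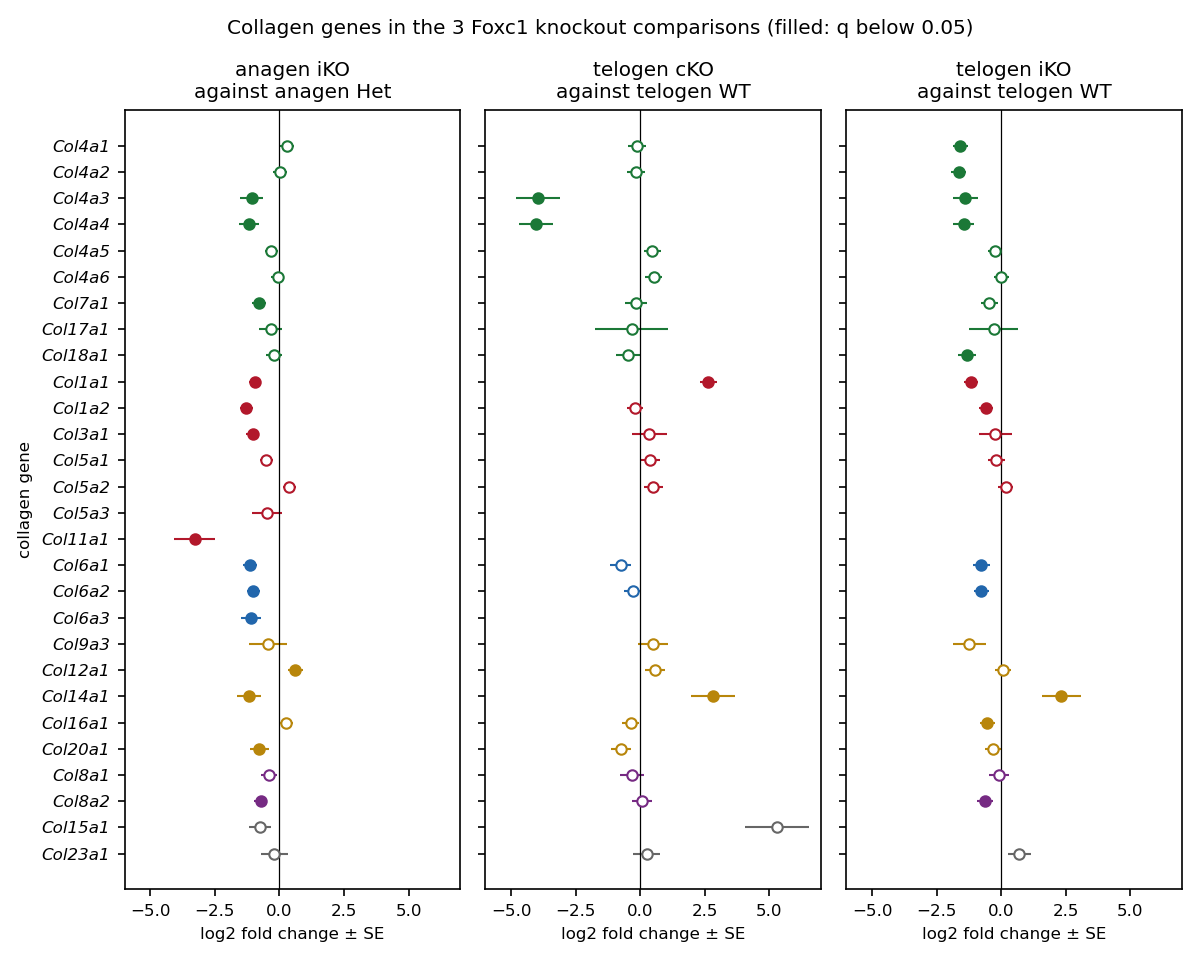
Log2 fold change of each expressed collagen gene in the 3 knockout comparisons, with the SE derived from the deposited statistic; filled points had q below 0.05, genes without a point were not tested, and colours mark the collagen class. Col4a3 and Col4a4 were filled and below 0 in all 3 panels, while Col1a1 was below 0 in anagen iKO and telogen iKO and at 2.64 in telogen cKO.

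In second telogen, the conditional knockout showed fewer calls: 2 collagen genes rose and 2 fell of 26 tested, beside 3.75% of all 13551 tested genes higher and 2.87% lower. Col1a1 (chromosome 11, 94797584 to 94813170 in mm9), the main chain of type I collagen, rose from 9.72 FPKM in WT to 60.5 in cKO. This was 6.22-fold, a log2 fold of 2.64 ± 0.32 (SE), with q = 0.00159 in the authors' deposited table. Col14a1 rose from 0.0915 to 0.641 FPKM, a low level in both groups. Col4a4 fell from 1.76 to 0.107 FPKM and Col4a3 from 0.814 to 0.0523 FPKM, with log2 folds of -4.04 ± 0.67 (SE) and -3.96 ± 0.84 (SE).

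In the table of all 7 groups, where q was adjusted over all pairs together, the same pair of telogen groups had 9 called collagen genes, 5 higher and 4 lower. The added calls were Col4a6, Col12a1 and Col15a1 higher and Col6a1 and Col20a1 lower. In the 2-group table these genes had q of 0.103 to 0.298. Col6a1 there was listed at 201 FPKM in WT and 118 in cKO. The median log2 ratio of FPKM + 1 over the 44 genes was 0 in telogen, with 21 values above 0 and 20 below, and the median over all 23735 gene models was 0 as well. Over the 20 collagen genes at 1 FPKM in either group the median was -0.17, against 0.00 over all 12348 gene models at that level.

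The other chains of types I and III were not called in telogen cKO. Col1a2, which forms the type I trimer with it, was listed at 11.9 FPKM in WT and 10.4 in cKO (q = 0.879). Col3a1 was listed at 0.369 and 0.471 FPKM (q = 0.91). The ratio of Col1a1 to Col1a2 FPKM was 5.84 in telogen cKO and 0.55 to 1.37 in the other 6 groups. The fibroblast genes Dcn, Lum and Pdgfra were listed at 0.247, 0.0404 and 0.0951 FPKM in telogen cKO, against 0.305, 0.026 and 0.176 in telogen WT. Of the 16 genes of the fibroblast list, 5 had the larger and 10 the smaller value in telogen cKO. Fbln2 was called higher, Mmp2 lower, and 6 were below 0.1 FPKM in each of these groups. The list summed to 2266 FPKM in telogen WT and 1835 in telogen cKO, of which Postn gave 1994 and 1615. Mir6236 stood at 8859 FPKM in telogen WT and 21214 in telogen cKO, and its part in the Col1a1 result was not tested. Among the gene models within 100000 bases of Col1a1, Ppp1r9b, Samd14, Pdk2 and Itga3 were tested and not called, with q of 0.0625 to 0.994.

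Types I and III also parted in telogen without a knockout. Col3a1 stood at 28.7 FPKM in anagen Het and 14.01 in anagen iKO, close to Col1a2 at 27.2 and 11.1. In telogen WT, cKO and iKO, Col3a1 stood at 0.382, 0.491 and 0.327 FPKM while Col1a2 stood at 12.4, 10.8 and 8.09. The Col3a1 to Col1a2 ratio was thus 1.05 and 1.26 in the anagen groups and 0.031 to 0.0456 in the telogen groups. In the Shh-heterozygous libraries it was 1.11 in first telogen and 0.742 in anagen II.

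**Figure D4:**
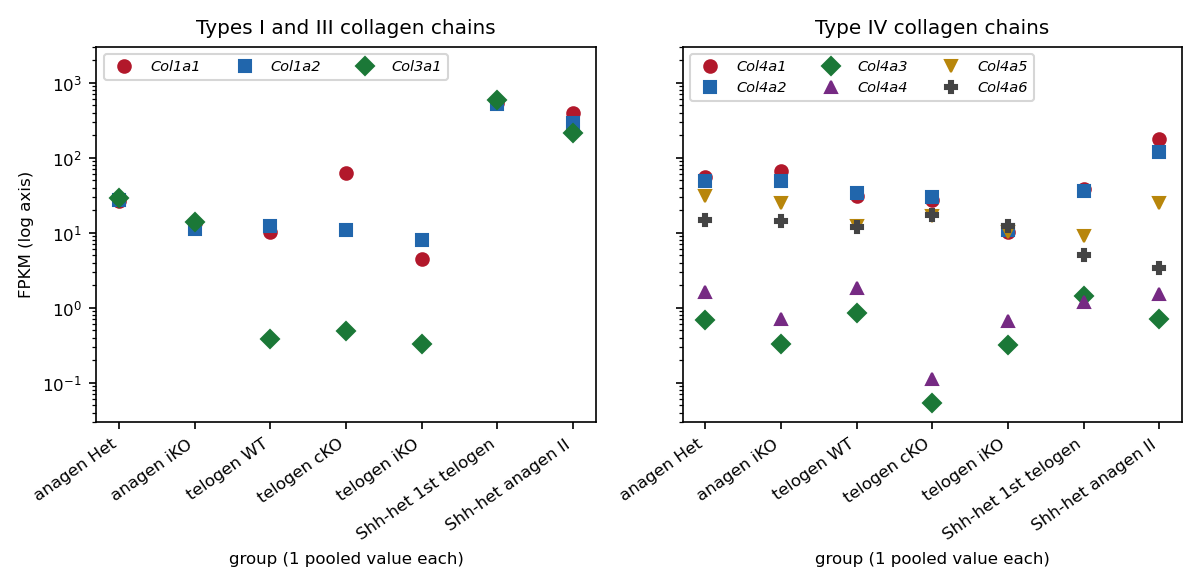
FPKM of the type I and III chains (left) and of the type IV chains (right) in each of the 7 groups, on a log axis, with 1 pooled value per group and no error. Col1a1 lay apart from Col1a2 in telogen cKO at 62.9 against 10.8 FPKM, Col3a1 was below 0.5 FPKM in the 3 second telogen groups, and Col4a3 and Col4a4 were lowest in telogen cKO.

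The telogen iKO was compared with telogen WT in the table of all 7 groups. These groups also differ in strain, age, sex, Cre driver and tamoxifen, which cannot be told apart from the loss of Foxc1, and WT is the same control as in the cKO comparison. Of 25 collagen genes tested, 11 fell and 1 rose, beside 5.88% lower and 7.01% higher over all 13714 tested genes. The lower genes included 5 of 9 basement membrane genes: Col4a1, Col4a2, Col4a3, Col4a4 and Col18a1. The others were Col1a1, Col1a2, Col6a1, Col6a2, Col8a2 and Col16a1, and Col14a1 rose. Of the 16 fibroblast markers, Fbln1, Fbln2, Loxl1 and Mmp2 were called lower in telogen iKO and 0 higher, and 9 of 16 had the smaller value. The list summed to 2266 FPKM in telogen WT and 1542 in telogen iKO, with 6 and 5 of its genes below 0.1 FPKM. Among 10 dermal papilla and sheath markers, 9 had the larger value in telogen iKO, and Crabp1, Enpp2 and Itga8 were called higher. The part of such cells in the collagen result was not tested.

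Col4a1 and Col4a2, which together form the common type IV network, stood at 30.5 and 34.2 FPKM in telogen WT and at 10.2 and 10.96 in telogen iKO. Their log2 folds were -1.58 ± 0.29 (SE) and -1.64 ± 0.29, each with q = 0.000444. In telogen cKO the same chains stood at 27.7 and 30.2 FPKM, and both were lower in telogen iKO than in telogen cKO (log2 -1.44 and -1.46). Col18a1 went from 210.3 FPKM in telogen WT to 83.5 in telogen iKO, a log2 fold of -1.33 ± 0.35 (SE). Col4a5 and Col4a6, whose chains can join in a type IV trimer, were not called against WT. Col4a5 stood at 12.2 and 10.3 FPKM and Col4a6 at 12.1 and 12.2.

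Outside the basement membrane types, Col1a1 went from 10.1 FPKM in telogen WT to 4.45 in telogen iKO, where the cKO had risen against the same control. Col1a2 fell from 12.4 to 8.09. Col6a1 fell from 209.5 to 123 FPKM and Col6a2 from 73.3 to 42.9, both with a log2 fold of -0.77. Col8a2 fell from 152 to 98.5 FPKM and Col16a1 from 19.5 to 13.5.

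Between both telogen knockouts, iKO against cKO, 9 of 26 tested collagen genes were lower in iKO and 2 were higher, beside 7.35% lower and 7.53% higher over all tested genes. The same strain, age, sex, driver and tamoxifen differences stand between these groups. Lower in iKO were Col1a1, Col4a1, Col4a2, Col4a5, Col4a6, Col8a2, Col9a3, Col15a1 and Col18a1. Col1a1 had the largest of these log2 folds apart from Col15a1, at -3.82 against -3.95. Col4a3 and Col4a4 were higher in iKO, with log2 folds of 2.57 and 2.58.

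Col4a3 and Col4a4 were called lower in each of the 3 knockout comparisons, of 25 collagen genes tested in each. With the joint table in place of the 2-group table for telogen cKO, Col6a1 was called lower in each as well. Over all genes tested in each, 0.684% were called lower in each, or 0.934% with the joint table. The telogen comparisons share their control libraries, so nothing is read from these counts, and the values of each comparison stand side by side here. Col4a3 and Col4a4 encode chains of the type IV network that also holds the chain of Col4a5 and is best known from kidney glomeruli. In the table of all 7 groups, Col4a4 stood at 1.63 FPKM in anagen Het, 0.719 in anagen iKO, 1.83 in telogen WT, 0.111 in telogen cKO, 0.666 in telogen iKO, 1.18 in first telogen and 1.52 in anagen II. Col4a3 stood at 0.693, 0.328, 0.845, 0.0546, 0.323, 1.46 and 0.707 FPKM in the same order. Each knockout value lay below the values of all 4 groups that keep Foxc1. The share of all genes that do so was not counted, and both genes are named here because they were called lower in these groups. The ratio of Col4a3 to Col4a4, a pair added to the ratios after its values were seen, was 0.426 to 0.49 in the 5 groups with 2 libraries. It was 1.24 in first telogen and 0.466 in anagen II.

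Col4a4 (chromosome 1, 82447298 to 82583424 in mm9) and Col4a3 (82583496 to 82718634) lie head to head, with 71 bases between the gene models. The stretch between both starts is shown because both genes moved together. It was read from the RefSeq promoter window of Col4a4 on GRCm38.p6, minus strand, at chr1:82586850-82586920, up to the RefSeq start of Col4a3. No exon of the GENCODE M21 basic set lies in it, although RefSeq carries Col4a4 models that start further upstream.
Col4a4 to Col4a3: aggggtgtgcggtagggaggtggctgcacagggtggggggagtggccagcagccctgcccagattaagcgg

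Promoter windows, from 250 bases before to 50 after each start, were found for 35 of the 44 collagen genes in the RefSeq table of GRCm38.p6 (38 windows in all). Col1a1, Col2a1, Col4a3, Col5a2, Col9a3, Col12a1, Col14a1, Col22a1 and Col26a1 had no window and were not searched. They were searched on both strands for GTAAACA and GTAAATA, forms of the site that forkhead proteins such as FOXC1 are known to bind, which differ in 1 letter and cannot match at the same position. GTAAACA was present in 3.65% of all 32851 windows and in 1 of the 38 collagen windows, that of Col6a1. GTAAATA was present in 3.04% of all windows and in 1 collagen window, that of Col8a1. GGGCGG, the GC box, was present in 35.7% of all windows and in 23 of the 38. Such matches describe letters and do not show binding. Col6a1 fell in both inducible knockout comparisons, and so did Col1a1, Col1a2, Col4a3, Col4a4, Col6a2 and Col8a2. None of these others that had a window held GTAAACA or GTAAATA. The Col6a1 window is shown because it alone among the collagen windows held GTAAACA. It is given from its far end to the GENCODE M21 start, on GRCm38.p6, minus strand, at chr10:76726169-76726294, with the GTAAACA match in capitals, 211 to 205 bases before the RefSeq start.
Col6a1: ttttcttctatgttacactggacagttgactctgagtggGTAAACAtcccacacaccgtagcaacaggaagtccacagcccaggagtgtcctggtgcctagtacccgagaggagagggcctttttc

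Whether the knockout effect differed between telogen cKO and anagen iKO was tested directly, since these comparisons share no library. The z test of the difference of both log2 folds covered 12939 genes, of which 0.386% had a higher and 0.271% a lower effect in telogen after Benjamini-Hochberg adjustment. Of 26 collagen genes in it, 3 were called higher and 1 lower. Col1a1 differed by 3.57 ± 0.40 (SE; 95% interval 2.79 to 4.36), from -0.94 in anagen to 2.64 in telogen. Col14a1 differed by 4.002 (interval 2.12 to 5.89) and Col15a1, a collagen of basement membrane zones that was near 0 in telogen WT, by 6.04 (interval 3.48 to 8.60). Col4a4 differed by -2.86 (interval -4.37 to -1.35, adjusted p of 0.0331). With the larger of 2 standard errors, Col15a1 and Col4a4 were no longer called, with adjusted p of 0.348 and 0.508. Col4a3 differed by -2.88 (interval -4.75 to -1.01) and was not called at an adjusted p of 0.209. For Col17a1 the difference was 0.00 with an interval from -2.88 to 2.88, which leaves its size unresolved. Cre driver, tamoxifen, strain, age, sex and the CD34 in the group names differ along with the stage between both knockouts. The controls differ too: FOXC1-Sox9CreER-heterozygous and given tamoxifen in anagen, wild type in telogen. None of these differences can be told apart from the stage.

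Stage was compared in pairs that share no library: telogen WT against anagen Het, telogen iKO against anagen iKO, and the Shh-heterozygous pair. The first of these pairs also differs in strain, age, sex, Foxc1 gene dose, Cre and tamoxifen, and the iKO pair differs in age (day 60 against day 30). In the authors' group names, telogen WT carries CD34 and anagen Het does not, so the sorting gate may differ as well. For telogen WT against anagen Het, 7 of 29 tested collagen genes were higher and 12 lower in telogen, beside 13.5% and 11.9% of all tested genes. For telogen iKO against anagen iKO, 7 of 28 were higher and 12 lower, beside 17.6% and 15.5%. Of the higher genes, 6 were called in both pairs, which is 85.7% of each list: Col5a2, Col6a1, Col6a2, Col8a2, Col20a1 and Col23a1. Over all genes, 74.5% of the higher calls of the first pair and 57.7% of those of the iKO pair were shared. Of the lower genes, 9 were called in both, which is 75% of each list: Col1a1, Col3a1, Col4a1, Col4a5, Col5a1, Col6a3, Col8a1, Col15a1 and Col16a1. Over all genes the shares were 67.3% and 52%. No collagen gene was called in opposite directions, as were 36 of all genes.

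Markers of other cells moved along with stage. In telogen WT against anagen Het, 6 fibroblast markers were called lower (Pdgfrb, Dcn, Dpt, Thy1, Mfap5 and Fbn1) and 4 higher (Fbln1, Postn, Loxl1 and Mmp2), of 15 tested. Lower calls were also made for 5 of 7 tested endothelial, 6 of 8 dermal papilla and sheath, 4 of 7 smooth muscle and pericyte and 7 of 10 hair shaft and root sheath markers. Higher calls in these 4 lists were Cnn1 and Cspg4, both of smooth muscle and pericyte. Of 7 tested immune markers, 2 were higher and 0 lower. In the iKO pair, 5 fibroblast markers were lower and 4 higher. For endothelial markers 4 of 7 were lower, and for smooth muscle and pericyte 4 of 7. Dermal papilla and sheath markers had 2 lower and 2 higher (Crabp1 and Rspo3) of 6. Hair shaft and root sheath markers had 7 lower and 1 higher (Gata3) of 10. Of 7 tested immune markers, 5 were higher and 1 lower. The part of such cells in the collagen results by stage was not tested.

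In the Shh-heterozygous pair, with 1 library each and no test, 7 of 27 genes at 1 FPKM or more were at least 2-fold higher in anagen II and 7 at least 2-fold lower, on the scale of FPKM + 1. Over all 13601 genes at that level the shares were 8.55% and 14.1%. Of the 6 genes higher in telogen in both replicated pairs, Col6a1, Col6a2 and Col8a2 were also at least 2-fold higher in first telogen than in anagen II. Of the 9 lower genes, Col4a1, Col4a5, Col8a1 and Col16a1 were also at least 2-fold lower. Over all genes called alike in both replicated pairs, this held for 39.8% of those higher in telogen and 47.3% of those lower. The other 5 lower genes had the larger value in first telogen: the log2 ratio of FPKM + 1 was 1.44 for Col3a1, 0.90 for Col6a3, 0.74 for Col15a1, 0.46 for Col1a1 and 0.18 for Col5a1. Such a turn of sign was seen for 12.7% of all genes lower in both replicated pairs.

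Col16a1, which lies at the dermal-epidermal junction, gave a wide span between stages. It stood at 75.1 FPKM in anagen Het, 89.6 in anagen iKO and 175 in anagen II, and at 19.5, 14.9, 13.5 and 19.8 in telogen WT, cKO, iKO and first telogen. The anagen and telogen groups did not overlap, and the share of all genes without such overlap was not counted. Col8a2 ran the other way, at 41.6, 25.3 and 8.72 FPKM in the 3 anagen groups and at 152, 160, 98.5 and 87.4 in the 4 telogen groups. Its log2 fold was 1.87 ± 0.29 (SE) for telogen WT against anagen Het and 1.96 ± 0.29 for the iKO pair.

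Col4a1 followed Col16a1, at 55.2, 67.2 and 176 FPKM in anagen Het, anagen iKO and anagen II and at 30.5, 27.7, 10.2 and 39.0 in telogen WT, cKO, iKO and first telogen. Col4a2 stood at 48.9, 49.5 and 119 FPKM in the anagen groups and at 34.2, 30.2, 10.96 and 35.9 in the telogen groups, and was called lower in telogen in the iKO pair but not in the WT and Het pair. These neighbours on chromosome 8 lie 2 bases apart, and their FPKM ratio was 0.891 to 1.48 over all 7 groups. Col4a5 and Col4a6, which lie 1342 bases apart on chromosome X, did not keep 1 ratio: Col4a5 over Col4a6 was 2.09 in anagen Het, 1.75 in anagen iKO, 0.845 to 1.01 in the second telogen groups, 1.78 in first telogen and 7.32 in anagen II.

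Within type VI, Col6a1 and Col6a2 were higher in telogen in both replicated pairs while Col6a3 was lower. In the Shh-heterozygous pair Col6a3 went the other way, with 18.6 FPKM in first telogen and 9.52 in anagen II. Col6a1 stood at 210 FPKM in telogen WT and 129 in anagen Het, and Col6a3 at 0.087 and 1.11. The Col6a1 to Col6a2 ratio was 1.52 to 3.43 over the 7 groups. The Col6a3 to Col6a1 ratio was at most 0.00877 in the 5 groups with 2 libraries and 0.156 and 0.185 in the Shh-heterozygous libraries.

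Among type V chains, which nucleate collagen fibrils, Col5a2 was higher in telogen (16.3 FPKM in anagen Het, 32.5 in telogen WT) and Col5a1 lower (7.54 and 2.06). Their ratio, Col5a1 over Col5a2, was 0.463 in anagen Het, 0.25 in anagen iKO and 0.049 to 0.0634 in the second telogen groups. It was 0.6 in first telogen and 1.00 in anagen II. Col1a2, Col5a3, Col9a3 and Col14a1 were called in the WT and Het pair and not in the iKO pair, and Col4a2, Col7a1, Col12a1 and Col18a1 in the iKO pair and not in the other. The difference between the pairs was not tested. Col9a3 shares its locus with Tcfl5, so its reads are uncertain.

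**Figure D5:**
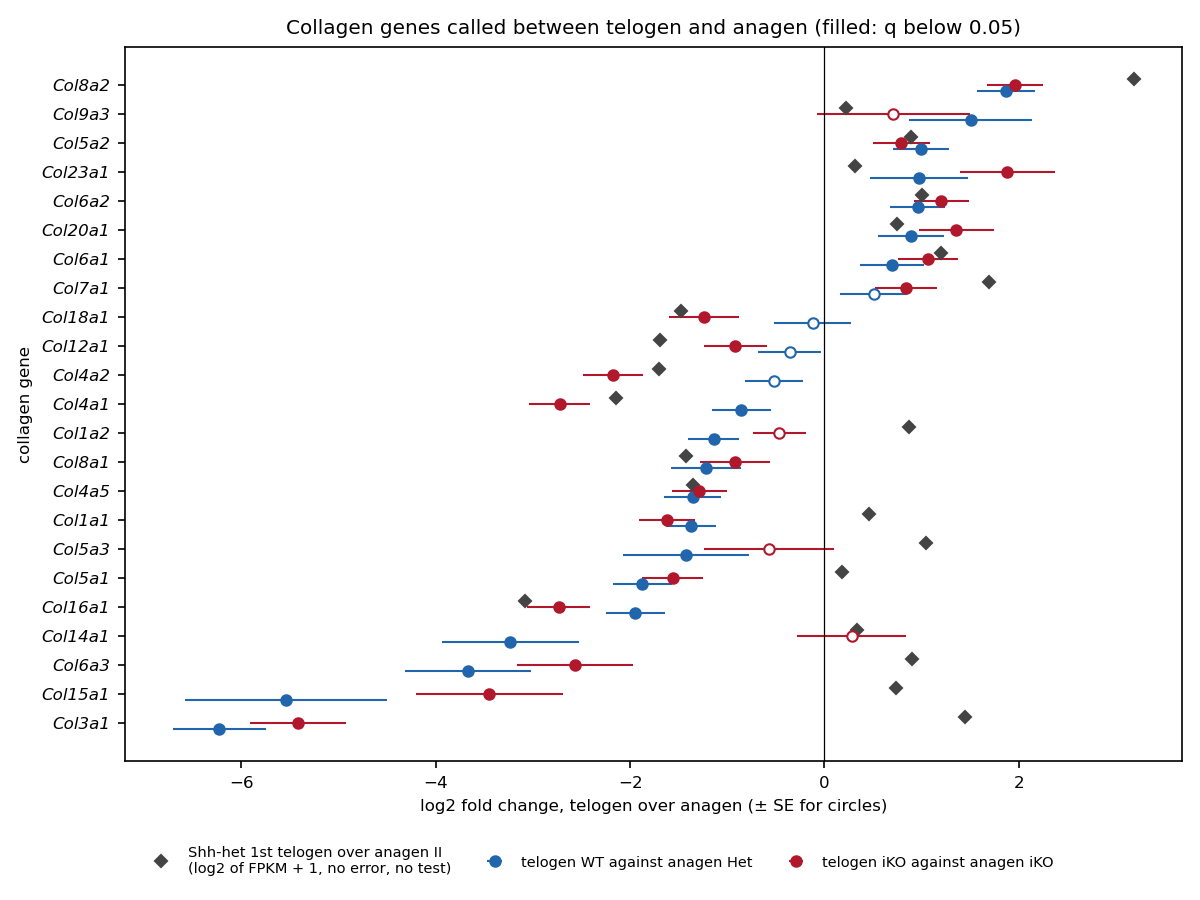
Log2 fold change of telogen over anagen for the 23 collagen genes called in either replicated pair, with the SE derived from the deposited statistic; filled circles had q below 0.05, and diamonds give the Shh-heterozygous pair as log2 of FPKM + 1 with no error. Col8a2 and Col6a2 lay right of 0 and Col16a1 and Col4a1 left of 0 in all 3 pairs, while Col3a1 lay far left in the 2 replicated pairs and right of 0 in the Shh-heterozygous pair.

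Genes that act on collagens were listed by role. Their counts stand beside shares over all tested genes of 5.18% higher and 5.08% lower in anagen iKO, 3.75% and 2.87% in telogen cKO, and 7.01% and 5.88% in telogen iKO. Of 16 tested genes for collagen modification and folding, 1 rose and 0 fell in anagen iKO, 2 rose and 0 fell of 17 in telogen cKO, and 3 rose and 3 fell of 16 in telogen iKO. At an unadjusted p below 0.05, 2 of these genes had the smaller value in anagen iKO and 0 in telogen cKO. P4ha1, a subunit of prolyl 4-hydroxylase, which hydroxylates collagen prolines, was higher in all 3, with log2 folds of 0.61, 0.77 and 0.69. Plod2, a lysyl hydroxylase, rose from 0.55 to 1.82 FPKM in telogen cKO and from 0.573 to 1.63 in telogen iKO. P4ha2, another such subunit, rose from 2.44 to 6.58 FPKM in telogen iKO. Serpinh1, the collagen chaperone, fell from 212 to 126 FPKM in telogen iKO.

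Of 12 tested genes for procollagen processing and cross-linking, 2 rose and 2 fell in anagen iKO, 1 rose and 1 fell in telogen cKO, and 3 rose and 3 fell in telogen iKO. Pcolce2, which enhances the removal of the C-terminal propeptide, fell in all 3: from 15.9 to 4.80 FPKM in anagen, from 19.2 to 1.07 in telogen cKO and from 19.9 to 10.4 in telogen iKO. Adamts3, a procollagen N-proteinase, was higher in all 3, at 4.25 and 7.40 FPKM in anagen, 0.287 and 1.57 in telogen cKO and 0.297 and 0.748 in telogen iKO. Tgm2, a transglutaminase that cross-links proteins, fell from 8.15 to 4.47 FPKM in anagen iKO. Loxl4, of the lysyl oxidase family, rose from 0.538 to 1.92 FPKM in telogen iKO. Tll1, a protease of the same family as Bmp1, rose in both iKO comparisons, with log2 folds of 1.06 and 1.69.

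Collagen receptors gave 1 call of 7 tested in anagen iKO, Itga1 (5.18 to 9.18 FPKM), and 0 of 7 in either telogen comparison by the authors' Cuffdiff test. At an unadjusted p below 0.05, the receptors counted 1 gene in telogen cKO (Itga2) and 4 in telogen iKO. Among 9 tested genes of collagen degradation in anagen, 2 rose and 2 fell: Timp3, an inhibitor of matrix proteases, rose from 69.0 to 163 FPKM, Mmp2 rose, and Mmp14 and Mmp15 fell. Mmp2, which cleaves type IV collagen, fell in telogen cKO from 92.0 to 27.4 FPKM and in telogen iKO from 95.7 to 48.7, where Mmp14 fell too (99.4 to 67.6 FPKM). Of the basement membrane partners, 2 rose and 3 fell of 21 in anagen iKO, 3 rose and 1 fell of 20 in telogen cKO, and 2 rose and 6 fell of 20 in telogen iKO. Frem2, of the Fraser complex at the basement membrane, fell in all 3, with log2 folds of -1.51, -0.94 and -1.26, and Itga8 was higher in all 3. Npnt, which encodes nephronectin, a basement membrane ligand of the Itga8 integrin, fell from 231 to 90.9 FPKM in anagen iKO. Lamb1, a laminin chain, rose in anagen iKO (18.8 to 31.0 FPKM) and in telogen cKO (4.89 to 8.64), and Fras1, of the Fraser complex, rose in telogen cKO from 0.222 to 0.591. In telogen iKO, Lama5, another laminin chain, fell from 27.3 to 13.8 FPKM and Hspg2, which encodes perlecan, from 14.3 to 7.996.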

How the data were processed

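All 12 libraries used a TruSeq mRNA preparation, per the labels' protocols. TopHat, Cufflinks, Cuffdiff and the build mm9 are named, with no versions, per the submitters' processing notes. The deposited tables hold FPKM per gene and group, pooled over libraries by the authors. The log2 fold change, the test statistic (a score) and the p-value and q-value of each pair were deposited by the authors. In the table of all pairs, the group behind each FPKM value differs by row. Depth is unknown. Groups came from the labels, and no column was left unmatched to a group.

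Calls used the authors' deposited q below 0.05. The SE of a log2 fold is that fold over its deposited statistic. Differences between knockout effects were tested by a two-sided z test with Benjamini-Hochberg adjustment. Genes whose deposited p was above 0.05 while the statistic gave a normal p below it were left out. The z test was also run on simulated folds. These were drawn with the same SE that the test uses, so that run could not check the SE itself. Medians used log2 of FPKM + 1, which understates low genes. A symbol on several rows kept the row of highest mean FPKM, which touched no collagen gene. All collagen genes with 1 FPKM in any group, or called, were named, and up to 4 called genes per list and knockout comparison, by lowest p and then largest fold. Members and lists were chosen with earlier results of these data known. Both 2-group tables were scaled apart from the joint table, by -0.08 (anagen) and 0.06 (telogen) on the log2 scale. Alternatives were stricter thresholds, other pseudocounts, the other table and other error estimates. Python 3.11.15, pandas 2.3.3, NumPy 2.4.6, SciPy 1.17.1 and Matplotlib 3.10.9 were used.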

Additional observations from a re-analysis of the deposited data

Results flagged for a closer look

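For 4 collagen genes the effect of Foxc1 loss differed between telogen cKO and anagen iKO by the z test of the difference itself. The telogen effect minus the anagen effect was 3.57 on the log2 scale for Col1a1, 4.002 for Col14a1, 6.04 for Col15a1 and -2.86 for Col4a4. With the larger of both standard errors, Col15a1 and Col4a4 were no longer called (adjusted p of 0.348 and 0.508). Col15a1 was called in neither 2-group table, with q of 0.109 in anagen and 0.121 in telogen. No group held enough separate values for a check of single samples.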

How the results depend on the processing

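No paired analysis was possible because each group has 1 pooled value per gene. For the same reason leaving out a library and a replicate block were not run. Requiring at least a 2-fold change left 9 called collagen genes in anagen iKO against Het, 7 in telogen iKO against WT and 7 in telogen iKO against cKO. For telogen cKO against WT, 2 remained with at least 1 FPKM in either group, and the joint table called 9. The larger of both standard errors left 2 genes whose knockout effects differed. The anagen median was -0.30 with a pseudocount of 0.1 and -0.39 over genes with at least 1 FPKM in either group, and the telogen median was -0.17 over such genes. Of 79 single-gene calls, 14 were lost at q below 0.01, 24 below 2-fold and 16 below 1 FPKM. Adjusting p within the pair was run only for pairs from the table of all 7 groups, where 3 calls were lost and 58 stayed. Most alternatives reuse the same log2 fold, so they could not change a direction. Only the joint table gave another fold, from the same libraries on another scale. No called gene changed direction there, which says little about how firm the directions are. Counts for the Shh-heterozygous pair under other thresholds, chosen after seeing the data, were 14 and 15, against 14. Genes below about 1 FPKM, such as Col4a3 and Col14a1, have the least certain values, since depth is unknown.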
